A study of Homo sapiens with 21 samples.

Results

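The 6 libraries described here are the untreated HepG2 cultures (0 µM, 3 libraries) and those given caffeine at 1000 µM (3 libraries), out of 21 libraries in the series. They were chosen by the dose and replicate in their titles. HepG2 is an established human hepatocellular carcinoma line that secretes many liver plasma proteins. All cultures, controls included, were washed and moved from serum-containing to serum-free medium at the start of the 24 h exposure, so every group shares serum withdrawal. The labels call the replicates biological but do not say whether they were run on separate days, so p-values measure the spread between these libraries. The other doses in the series, 0.01, 0.1, 1, 10 and 100 µM, entered the model to estimate that spread, and the 10 µM libraries also served as a matched comparison.

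Caffeine is a methylxanthine. It blocks adenosine receptors, and at high concentration it inhibits the phosphodiesterases that break down cyclic AMP (cAMP), releases calcium through ryanodine receptors, and inhibits kinases of the ATM, ATR and mTOR family. The liver clears it mainly through CYP1A2, an enzyme under the aryl hydrocarbon receptor (AHR). In hepatocytes, cAMP drives fasting genes of glucose output, while insulin and sterol-regulated factors (SREBP proteins) drive lipid synthesis.

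Read counts per gene were measured in poly(A) RNA, with 27867586 to 39571761 counts in the control libraries and 25395221 to 37406615 at 1000 µM. Levels are given as CPM, counts scaled to a common library size with trimmed-mean (TMM) factors, and means carry ± SD over n = 3 libraries. All 12 defining markers of hepatocytes and HepG2 cells, among them ALB, AFP, APOB, HNF4A and GPC3, were at 18.2 CPM or more in each of the 6 libraries. The libraries differed in mitochondrial reads. These took 10.8% to 14.2% of counts in the controls, 4.86% and 4.85% in replicates 1 and 2 at 1000 µM, and 11.8% in replicate 3. Counts of MT-ND4 divided by those of MT-CO1 came to 0.492 to 0.57 in the controls, 0.376 and 0.357 in replicates 1 and 2, and 0.752 in replicate 3. Clustering on mitochondrial mRNAs put the controls in set A, replicates 1 and 2 in set B and replicate 3 in set C. Set and treatment cannot be told apart within these 6 libraries alone.

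By edgeR's quasi-likelihood test, 10342 of 17951 features tested (57.6%) passed an adjusted p of 0.05. Of these, 5119 (28.5% of those tested) were higher and 5223 (29.1%) lower at 1000 µM. A gene is said below to have risen or fallen only if it passed that test. With calls this common, a stricter count is set beside each. A call is termed retained when all 3 treated libraries lay outside the range of all 3 controls and the same fit with the library set as a term also called it in that direction. With the set term 6829 features (38.0%) passed. Retained calls numbered 5839 (32.5% of features tested), 2869 higher (16.0%) and 2970 lower (16.5%). Most list members code for proteins, and of the 13010 protein-coding genes tested 31.5% were called higher, 31.8% lower and 38.3% were retained. The set term leans on replicate 3 at 1 µM, the only library of set B that shares a dose with set A. As a further view, replicates 1 and 2 at 1000 µM were set against the 3 libraries at 10 µM, which are all in set B. There 10794 features (60.1%) passed, and 8267 (46.1%) of all features were called in the same direction as against control. Both comparisons use treated replicates 1 and 2, so some agreement in direction is built in. This pair was also close: the chi-square per feature between their counts, given library size, was 3.78. It was 122 and 108 for replicates 1 and 2 against replicate 3, and 8.91 to 45.7 between controls. The median log2 fold change over all features was -0.007 against control and -0.03 with the set term.

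**Figure D1:**
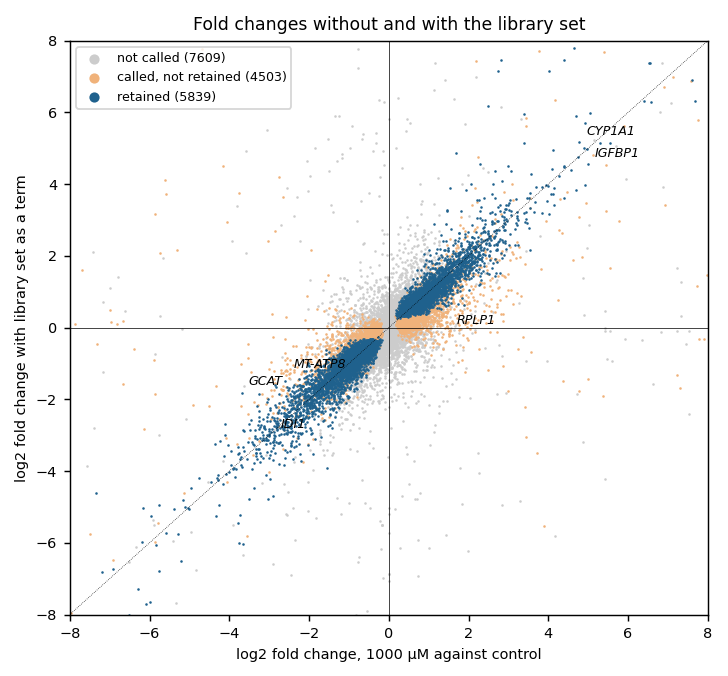
Each point is 1 of the features tested, with its log2 fold change at 1000 µM against control on the x axis and the same with the library set as a term on the y axis; 70 features lie outside the axes. Blue points are the 5839 retained calls, orange the other calls and grey features not called. IGFBP1, CYP1A1 and IDI1 sit near the dotted line of equal values, while RPLP1 lies near 0 on the y axis only.

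The 5 genes taken as markers of this dose differed from the controls in all 3 treated libraries. IGFBP1, a secreted protein that binds insulin-like growth factors and is induced in fasting liver, stood at 98.1, 98.8 and 115 CPM in the controls and 2931, 2932 and 4065 CPM at 1000 µM. CYP1A1, a drug-metabolising enzyme induced through AHR, stood at 2.57, 3.12 and 2.95 CPM and then 78.6, 78.3 and 80.8 CPM. For both genes every treated library lay above every control, and replicate 3 was the highest. AQP3, a channel for water and glycerol, went from 1.41, 1.25 and 1.19 to 31.8, 33.7 and 38.6 CPM. G6PC1, the catalytic subunit that releases free glucose from the liver, went from 0.458, 0.389 and 0.614 to 9.18, 8.82 and 7.55 CPM, again without overlap. IDI1, an isomerase of the sterol pathway, went the other way, from 343, 398 and 467 to 52.4, 54.5 and 56.9 CPM. The log2 fold changes were 4.99 ± 0.154 (SE) for IGFBP1, 4.78 ± 0.127 for CYP1A1, 4.75 ± 0.174 for AQP3, 4.14 ± 0.223 for G6PC1 and -2.88 ± 0.0967 for IDI1. Their adjusted p-values by edgeR's quasi-likelihood test were 1.79e-14, 4.14e-15, 1.42e-13, 1.55e-11 and 5.21e-14 in that order. These genes were chosen with their values known. Within set B, the log2 differences from 10 µM were 4.26, 4.75, 4.77, 3.68 and -2.83.

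Among annotated genes at a mean of 5 CPM or more with a retained call, pseudogenes left out, the 10 largest rises ran from SLC22A15 (log2 fold change 6.58), a solute carrier, to PIM1 (4.13), a survival kinase. SLC22A15 stood at 0.306, 0.0779 and 0.192 CPM in the controls and 18.9, 19.6 and 16.3 CPM at 1000 µM, and PIM1 at 5.99, 4.80 and 4.52 and 86.5, 84.1 and 97.3 CPM. KLHDC7B (5.54), the complement C5a receptor C5AR1 (4.14), the antisense RNA ZMIZ1-AS1 (4.40) and the metallothioneins MT1E and MT2A (4.89 and 4.39) completed the rises with IGFBP1, CYP1A1 and AQP3. The use of strand in counting is not given in the sources used here, so reads of ZMIZ1-AS1 and of the gene on the other strand cannot be told apart. Among the 10 largest falls were KRTAP3-1 (-5.59), skeletal muscle actin ACTA1 (-5.15) and ZNF341 (-3.17). GCAT, an enzyme of threonine breakdown, fell by 3.69 on the log2 scale but by 1.81 with the set term. NR2F6, a nuclear receptor, was uneven among the treated libraries, at 30.2, 28.3 and 27.99 CPM in the controls and 1.38, 5.56 and 0.0415 CPM at 1000 µM. NR2F6 was not called without treated replicate 1 or 3 (adjusted p = 0.0816 and 0.0613). Further falls among them were LINC03040 (-4.47), WFIKKN1 (-3.34), the synaptic vesicle protein SYP (-3.20) and the phosphodiesterase PDE4C (-3.32).

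The gene lists below were read in each treated library as well as in the fit. In 13 of 42 lists the median of at least 1 treated library taken singly was at 0 or of the other sign than the fitted one; this was so for 9 lists in replicate 3. The 13 were fatty acid oxidation, complement, bile acids, hepatocyte transcription factors, urea cycle, cAMP, adenosine, glycerol handling, immediate early genes, clock, autophagy, nuclear respiratory chain and mitochondrial mRNAs, and no direction is read from their medians.

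**Figure D2:**
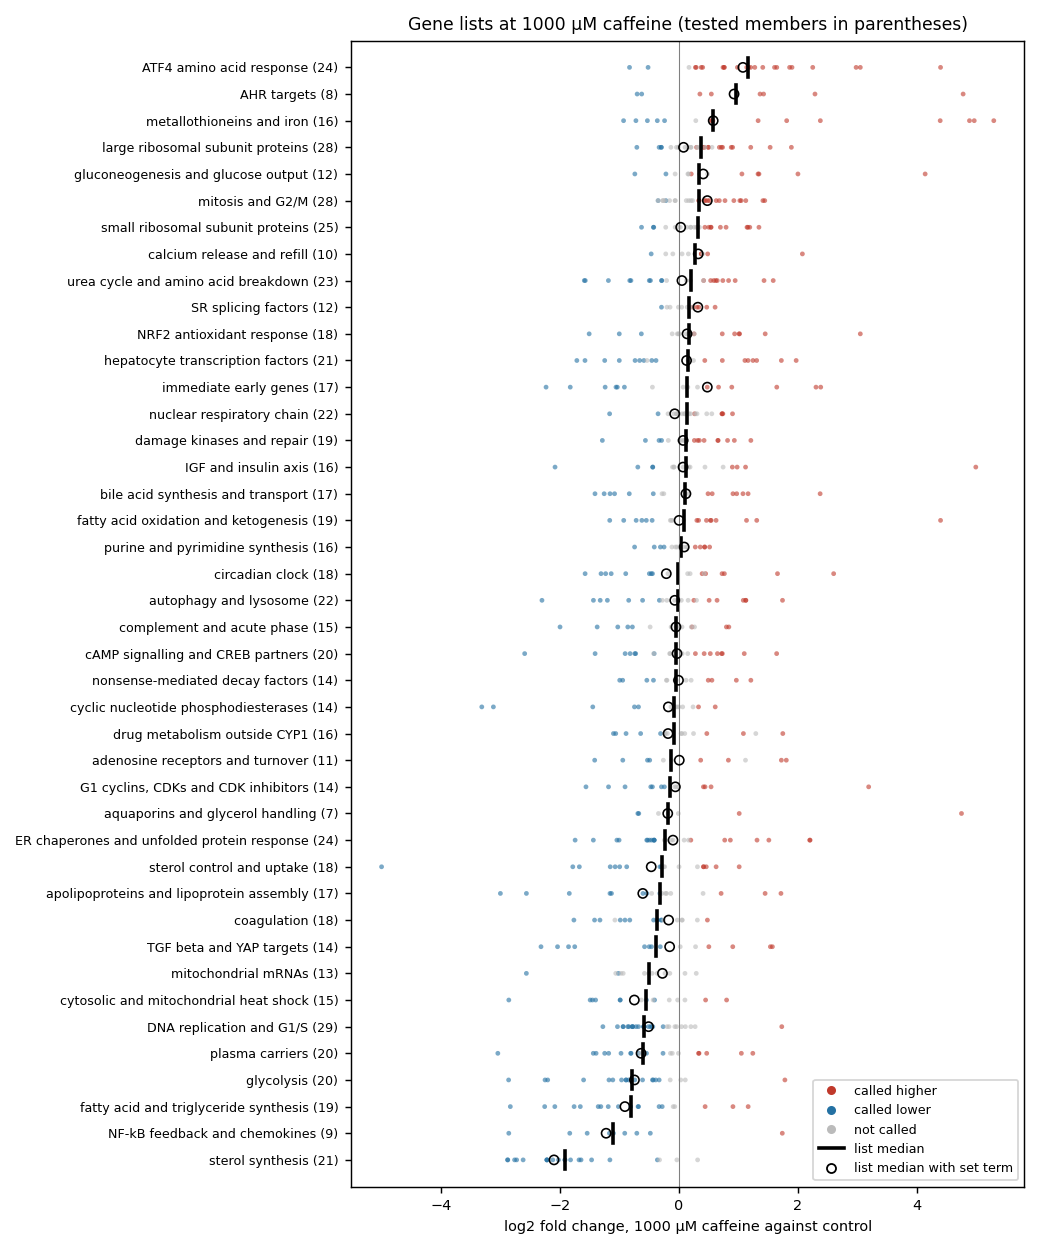
Each row is a gene list with the number of tested members in parentheses, and each point is a member's log2 fold change at 1000 µM against control (red called higher, blue called lower, grey not called). Bars are list medians and open circles the medians with the library set as a term; sterol synthesis lies lowest at -1.92 and the ATF4 list highest at 1.16.

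Cholesterol synthesis genes were lower from the first committed steps to the last. Of 21 members tested, 18 fell and none rose, 17 of the falls were retained, and the median log2 fold change was -1.92, beside -0.007 over all features. The median was -2.04, -2.004 and -1.93 in treated replicates 1, 2 and 3 taken singly against the control mean. HMGCS1, an enzyme ahead of mevalonate, fell from 249.8 ± 17.8 to 77.7 ± 17.6 CPM. Of the kinases and decarboxylase that follow, MVK (-2.22) and MVD (-2.89) fell, while PMVK (-0.04) did not pass. FDPS fell from 488 ± 46.2 to 104 ± 3.70 CPM, FDFT1 from 522 ± 30.9 to 119.8 ± 20.8 CPM, and SQLE, a rate-limiting epoxidase, from 306 ± 14.4 to 80.7 ± 6.52 CPM. Lanosterol synthase LSS had the values 394, 373 and 266 CPM in the controls and 54.2, 51.6 and 45.9 CPM at 1000 µM, so that the groups lay far apart. In the late steps DHCR7 (-2.73), HSD17B7 (-2.62) and MSMO1 (-1.83) fell. CYP51A1, the lanosterol demethylase, did not pass (0.31); it stood at -0.41 with the set term, not passed, and was called lower in set B (-0.45). GGPS1 (-0.33), which leads away from sterols, did not pass but was called lower with the set term, and PMVK and GGPS1 were called lower in set B (-0.40 and -0.70).

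The genes that sense and import cholesterol moved in part with them. Of 18 tested, 9 fell, all retained, and 5 rose, none retained; the median was -0.281. SREBF2, which encodes an SREBP protein, stood at 284, 282 and 213 CPM in the controls and 115, 121 and 134 CPM at 1000 µM. Every treated library lay under every control. Its relative SREBF1 (-1.16), the intestinal-type cholesterol importer NPC1L1 (-1.68), and the sterol carrier STARD4 (-1.79) also fell, as did the HDL receptor SCARB1, from 299 ± 53.02 to 149.6 ± 21.6 CPM. INSIG2 (1.01) and NPC1 (0.62) rose, but their set-term values of 0.43 and 0.29 did not pass. The exporter ABCA1 (0.31) did not pass.

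SREBP proteins bind sterol regulatory elements next to CCAAT boxes. Of the 16 sterol synthesis genes with an entry in the RefSeq promoter table (GRCh38.p14), 14 (87.5%) held CCAAT on either strand in the 250 bases before the start, against 37.0% of the 27305 genes in that table. The element TCACNCCAC, searched on both strands, was in none of the 16, in 1 of 15 genes of sterol control (SREBF2) and in 1.09% of all genes; the shorter CACNCCAC inside it was in 2 of the 16 (12.5%) and in 5.89% of all genes. These matches describe the letters in the window only. The windows of SREBF2 (chr22:41832945-41833024, plus strand) and IDI1 (chr10:1048957-1049036, minus strand) are shown because both genes fell; the first holds the longer element and the second the shorter one, read on the opposite strand, in capitals.
SREBF2: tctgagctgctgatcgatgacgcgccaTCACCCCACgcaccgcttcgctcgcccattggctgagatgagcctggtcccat
IDI1: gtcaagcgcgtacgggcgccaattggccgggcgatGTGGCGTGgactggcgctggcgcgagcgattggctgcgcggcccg

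Fatty acid and triglyceride synthesis genes were also mostly lower. Of 19 tested, 14 fell (10 retained) and 3 rose (all retained), with a median of -0.815. Fatty acid synthase FASN stood at 1333, 1259.7 and 754 CPM in the controls and 204, 205 and 377 CPM at 1000 µM, where replicate 3 was the least reduced. The desaturase SCD fell from 3353 ± 134 to 1059 ± 42.95 CPM, ATP citrate lyase ACLY from 458 ± 54.9 to 178 ± 16.2 CPM, and the lipid droplet enzyme PNPLA3 from 150.0 ± 10.3 to 31.2 ± 3.72 CPM. The delta-5 desaturase FADS1 (-1.19), the delta-6 desaturase FADS2 (-2.84), AGPAT2 (-1.32) and DGAT2 (-1.02), which esterify glycerol, fell too. GPAM, the mitochondrial acyltransferase of the first step, rose from 491 ± 41.9 to 921 ± 188 CPM, and LPIN2 (1.16) and the droplet coat PLIN2 (0.44) rose. MLXIPL, which encodes the glucose-sensing factor ChREBP, stood at -0.07 and did not pass.

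**Figure D3:**
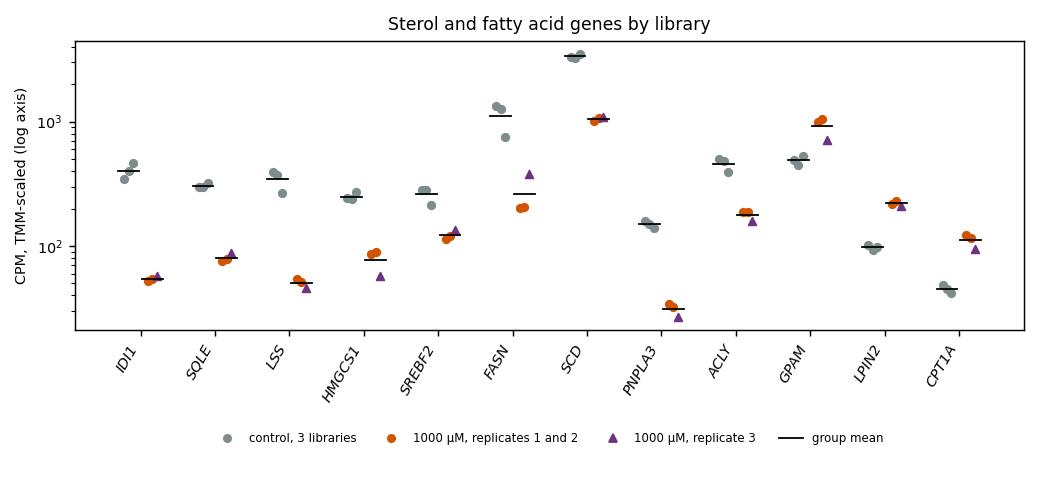
CPM on a log axis for 12 lipid genes in each library (grey, control; orange, 1000 µM replicates 1 and 2; purple triangle, replicate 3; bars are group means). LSS, PNPLA3 and IDI1 lie below their controls in all 3 treated libraries, and GPAM, LPIN2 and CPT1A lie above theirs.

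Genes of fatty acid oxidation did not move as a group. Of 19 tested, 9 rose (5 retained) and 6 fell (4 retained), with a median of 0.077; with replicate 3 as the only treated library, or with the set term, 5 were called higher. CPT1A, the rate-limiting carrier of fatty acids into mitochondria, stood at 48.3, 45.3 and 41.6 CPM and then 122, 117 and 95.5 CPM, all 3 treated libraries above the controls. BDH1 (0.53), of ketone metabolism, and ACADVL (0.54) rose. The carnitine carrier SLC25A20 (-0.93), CPT2 (-0.63) and HADH (-0.55) fell. The receptor PPARA (0.08) did not pass. PDK4 had at most 5 counts in any of the 6 libraries and was not tested.

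Most called genes of glucose output were higher and most of glycolysis lower. Of 12 genes of gluconeogenesis tested, 6 rose (5 retained) and 2 fell (1 retained), with a median of 0.342. The 2 lower became 1 without control replicate 2 or any 1 treated library, and none with replicate 3 as the only treated library. PPARGC1A, a coactivator induced by cAMP, rose from 17.97 ± 1.53 to 71.8 ± 7.95 CPM. PCK1, the cytosolic enzyme that commits carbon to glucose, stood at 9.11, 8.28 and 7.21 CPM and then 19.95, 21.3 and 20.7 CPM, and the glucose transporter SLC2A2 rose from 45.3 ± 6.98 to 115 ± 18.5 CPM. PCK2 (1.06) rose, CRTC2 (-0.74), a CREB coactivator, fell, and PC (0.15) and FOXO1 (0.16) did not pass. FBP1 was at 0.294 ± 0.0381 CPM in the controls and did not pass (0.48). Of 20 glycolysis genes tested, 16 fell (15 retained), and the median was -0.798. The aldolase ALDOC fell from 145 ± 18.4 to 19.9 ± 2.46 CPM, liver pyruvate kinase PKLR from 57.7 ± 7.91 to 12.1 ± 1.43 CPM, and the neuronal-type glucose transporter SLC2A3 from 467 ± 29.6 to 153 ± 11.98 CPM. PFKFB4 (-2.21) and PFKFB3 (-1.18), which make the activator of phosphofructokinase, fell as well. GAPDH went from 3920.4, 4248 and 3386 to 1618, 1635 and 2653 CPM, with replicate 3 nearer the controls than the other treated libraries. SLC2A1, the widespread glucose transporter, was the 1 member that rose, from 225, 207 and 167 to 594, 569 and 894 CPM. HK2 (0.03) did not pass.

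Of 8 genes of the AHR list tested, 6 rose (4 retained) and 2 fell (none retained), with a median of 0.952. Besides CYP1A1, the quinone reductase NQO1 rose from 466 ± 19.4 to 1198 ± 72.95 CPM, the receptor AHR itself from 97.9 ± 13.6 to 262 ± 47.9 CPM and the aldehyde dehydrogenase ALDH3A1 from 1.53 ± 0.208 to 2.24 ± 0.138 CPM. ALDH3A1 was not called without control replicate 3 or treated replicate 3 (adjusted p = 0.0778 and 0.0579). TIPARP (0.35), an AHR-induced feedback gene, rose but was not retained. The AHR partner ARNT (-0.63) fell, with a set-term value of -0.20 that did not pass. CYP1A2, the main caffeine enzyme, had at most 6 counts in a library, AHRR 12 and CYP1B1 1, and none was tested. The antioxidant genes of the NRF2 list were mixed, with 7 of 18 higher (6 retained), 3 lower (2 retained) and a median of 0.165. TXNRD1 rose from 235 ± 8.51 to 641 ± 82.4 CPM, and both subunits of glutamate-cysteine ligase, GCLC (1.01) and GCLM (1.02), rose. HMOX1, haem oxygenase, stood at 92.6, 105 and 79.2 CPM and then 31.1, 31.7 and 34.1 CPM, lower in all 3 treated libraries. Ferritin light chain FTL (-1.01) also fell, while FTH1 (0.26) did not pass.

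Other drug enzymes had calls in both directions. Of 16 tested, 3 rose (1 retained) and 5 fell (3 retained), with a median of -0.081. Over all protein-coding genes tested the shares were 31.5% higher and 31.8% lower. CYP2B6, a cytochrome P450 induced through the receptors CAR and PXR, stood at 21.9, 23.4 and 20.97 CPM and then 60.5, 62.2 and 99.8 CPM, with replicate 3 the highest. The sulfotransferase SULT2A1 (-1.10), the carboxylesterase CES2 (-1.07) and the glucuronosyltransferase UGT2B7 (-0.31, and -0.197 without control replicate 3) fell. CYP3A4, at 0.283 ± 0.105 CPM in the controls, and NR1I2 (0.05), which encodes PXR, did not pass. A further 9 members, GSTA1 among them, were not tested for low counts. Because the counting rules are not given, such low counts are reported as listed and not as absence.

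Plasma carriers were mostly lower. Of 20 tested, 11 fell (9 retained) and 5 rose (4 retained), with a median of -0.599. The median was -0.716, -0.444 and -0.236 in treated replicates 1, 2 and 3, so replicate 3 lay nearest the controls, and with it as the only treated library 3 were higher. Albumin, ALB, went from 10448, 11618 and 15342 to 6109.9, 6552 and 6339 CPM, and the fetal carrier AFP from 4810.3, 4964 and 6320.3 to 1904, 2008 and 2199.6 CPM. For both genes the highest treated library lay under the lowest control. On the log2 scale ALB changed by -0.98 ± 0.105 (SE), and edgeR's quasi-likelihood test gave an adjusted p of 1.96e-07. Transferrin TF fell from 4099.9 ± 90.5 to 2332 ± 95.2 CPM, the cortisol carrier SERPINA6 from 311 ± 5.50 to 114 ± 21.7 CPM, and alpha-1-antitrypsin SERPINA1 from 6470.3 ± 525 to 3695 ± 881 CPM. Haptoglobin HP (-1.18) fell. The acute-phase inhibitor SERPINA3 rose from 183 ± 21.2 to 431 ± 11.2 CPM, and ITIH3 (1.05), ITIH2 (0.34) and transthyretin TTR (0.46) rose. AMBP (-0.15) and ORM1 (-0.11) did not pass; ORM1 was called higher with the set term (0.455), and it has a near-identical copy, so its count is uncertain. In bulk RNA, less RNA per cell and fewer cells with a transcript cannot be told apart.

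Apolipoproteins split by member, with 8 of 17 lower (6 retained), 3 higher (all retained) and a median of -0.324. APOB, the structural protein of LDL particles, went from 8277, 7453 and 9102 to 13602, 14268 and 12671 CPM, higher in all 3 treated libraries. APOM and APOC1 rose as well (1.45 and 1.71). Hepatic lipase LIPC stood at 69.2, 70.5 and 64.8 CPM and then 7.02, 7.62 and 10.99 CPM, and APOA5, which aids clearance of triglyceride-rich particles, fell from 78.1 ± 9.14 to 13.1 ± 1.99 CPM. APOA4 (-1.85), APOC3 (-1.14) and APOH (-1.16) fell. APOA1 (-0.21), the main protein of HDL, did not pass, but its treated libraries lay under all controls and it was called lower with the set term (-0.74) and in set B (-0.87). MTTP (-0.14), which loads lipid onto APOB, did not pass.

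**Figure D4:**
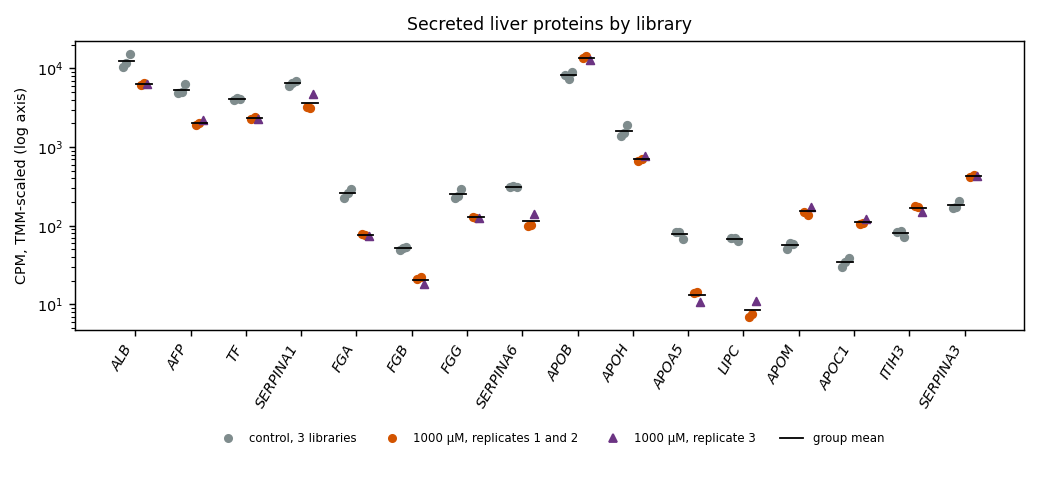
CPM on a log axis for 16 genes of secreted liver proteins in each library (grey, control; orange, 1000 µM replicates 1 and 2; purple triangle, replicate 3; bars are group means). LIPC shows the widest gap, from a mean of 68.2 to 8.54 CPM, and APOB, APOM, APOC1, ITIH3 and SERPINA3 lie above their controls.

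The 3 fibrinogen chains fell together. FGA stood at 227, 260.0 and 291 CPM and then 79.01, 75.8 and 73.3 CPM, FGB fell from 51.7 ± 2.57 to 20.5 ± 2.07 CPM and FGG from 254 ± 37.97 to 128 ± 1.30 CPM, and the calls for all 3 were retained. Over the 18 coagulation genes tested 11 fell (6 retained) and 1 rose, with a median of -0.364. The plasmin inhibitor SERPINF2 (-0.83) and protein C, PROC (-0.43), fell; F2, F7, F10 and F11 fell by 0.30 to 0.37 on the log2 scale without a retained call, and F11 stood at 0.02 with the set term. Calls also ended for F2 and F7 without control replicate 1 or 2 or treated replicate 1 or 2 (adjusted p = 0.0963 to 0.185), and for F10 without control replicate 2 (0.057). With replicate 3 as the only treated library 7 of the 18 were lower, and 2 were higher in that setting and without control replicate 3 or treated replicate 1. The protein C cofactor PROS1 (0.48) rose, but its set-term value of 0.20 did not pass and the call was not retained. F5 (0.05) and antithrombin SERPINC1 (0.05) did not pass. Complement and acute-phase genes gave 3 of 15 higher and 5 lower, all retained, with a median of -0.045; 5 were higher without control replicate 3. C5 (0.84) and MASP1 (0.80) rose, SAA4 (-1.03) and CFI (-0.86) fell, and C3 (-0.13) did not pass. C4A and C4B are near-identical copies, so their counts are uncertain; neither passed.

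Of 17 genes of bile acid handling tested, 7 rose (6 retained) and 6 fell (5 retained), with a median of 0.106. The bile acid exporter subunit SLC51B stood at 2.17, 2.28 and 2.72 CPM and then 10.3, 10.8 and 16.2 CPM, with replicate 3 the highest. The canalicular pumps ABCC2 (0.91) and ABCB4 (1.07) and the bile acid receptor gene NR1H4 (0.97) rose. AKR1D1 (-1.42) and HSD3B7 (-1.16), of synthesis, and the FGF19 co-receptor KLB (-1.09) fell. CYP27A1 (0.17) and NR0B2 (0.11) did not pass, and CYP7A1 had at most 3 counts and was not tested.

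Hepatocyte transcription factors went in both directions, with 8 of 21 higher (7 retained), 9 lower (3 retained) and a median of 0.15. The medians of treated replicates 1, 2 and 3 taken singly were -0.013, -0.069 and -0.012, so the sign of the fitted median held in none of them. The 9 lower became 5 without replicate 2 at 1000 µM, and 5 with replicate 3 as the only treated library. HNF4A, the central factor of hepatocyte identity, stood at 254 ± 43.7 and 284 ± 14.7 CPM (0.16, not passed). CEBPB rose while CEBPD fell, at 18.2, 18.1 and 17.8 and then 50.01, 42.1 and 86.6 CPM for CEBPB and at 26.5, 27.8 and 28.7 and then 7.58, 6.48 and 11.2 CPM for CEBPD. Replicate 3 was the highest treated library for both. ONECUT2 (1.97), HNF4G (1.24), TBX3 (1.11) and ATF5 (1.31) rose, and ONECUT1 (-1.58) and GATA4 (-1.25) fell. FOXA1 and FOXA2 fell by 0.66 and 0.59 on the log2 scale, but their set-term values were -0.33 and -0.22 and their calls were not retained. FOXA2 was called without treated replicate 3 (-0.998), but not without any 1 of the other libraries (adjusted p = 0.0581 to 0.19). Of 23 genes of the urea cycle and amino acid breakdown tested, 10 rose (7 retained) and 9 fell (5 retained), with a median of 0.192; 4 were lower with replicate 3 as the only treated library. CPS1, the first enzyme of the urea cycle, rose from 15.2 ± 0.716 to 40.9 ± 7.04 CPM, and NAGS, which makes its activator, rose from 5.69 ± 0.292 to 17.04 ± 1.29 CPM. ASS1 (-0.83) and ASL (-0.50), later enzymes of the cycle, fell. The lysine enzyme AASS (-1.58), liver glutaminase GLS2 (-1.19) and GPT (-1.60) fell, and cystathionase CTH (0.83) rose.

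Genes of the amino acid response under ATF4, a factor translated when eIF2 is phosphorylated, were mostly higher. Of 24 tested, 21 rose (18 retained) and 2 fell (1 retained; 1 lower with replicate 3 as the only treated library), with a median of 1.16 (1.07 with the set term), and 1.08, 0.994 and 1.20 in treated replicates 1, 2 and 3. ASNS, asparagine synthetase, stood at 80.4, 81.5 and 108 CPM in the controls and 423, 433 and 425 CPM at 1000 µM, or 2.25 ± 0.0955 (SE) on the log2 scale, for which edgeR's quasi-likelihood test gave an adjusted p of 6.28e-13. The folate enzyme MTHFD2 rose from 204 ± 7.23 to 761 ± 71.2 CPM and the cystine transporter SLC7A11 went from 42.05, 33.5 and 45.1 to 382, 400.3 and 216 CPM. Replicate 3 was the lowest treated library for SLC7A11 but still above the controls. CEBPG (1.86), TRIB3 (1.61), the serine enzymes PSAT1 (1.41) and PHGDH (1.14), ATF3 (1.64) and ATF4 itself (1.17) rose. The mTOR inhibitor DDIT4 (-0.83) and PYCR1 (-0.52) fell, and SESN2 (0.17) did not pass. FGF21, a fasting hormone, had 2 counts over the 3 control libraries and stood at 0.459, 0.461 and 0.622 CPM at 1000 µM.

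The CEBP-ATF response core, searched as TGATGNAA on both strands in the 250 bases before the start, was in 6 of the 19 list genes with a promoter entry (31.6%) and in 3.89% of all genes in the RefSeq table. The 6 were ASNS, CHAC1, SLC1A5, CEBPG, ATF3 and FGF21, which all rose. The windows of ASNS (chr7:97872439-97872518, minus strand) and CEBPG (chr19:33374033-33374112, plus strand), both GRCh38.p14, are shown as the members of the 6 with the smallest p, with the match in capitals.
ASNS: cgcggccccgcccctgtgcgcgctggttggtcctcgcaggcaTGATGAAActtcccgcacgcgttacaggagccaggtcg
CEBPG: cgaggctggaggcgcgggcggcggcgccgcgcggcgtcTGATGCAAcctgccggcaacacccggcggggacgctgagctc

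Endoplasmic reticulum genes had calls in both directions. Of 24 tested, 7 rose (4 retained) and 11 fell (8 retained), with a median of -0.238. The sensors ATF6 and ERN1 (IRE1) rose, ATF6 from 17.2, 18.02 and 20.3 to 85.9, 86.9 and 81.8 CPM and ERN1 from 19.8, 18.3 and 17.03 to 96.3, 93.9 and 63.6 CPM. The co-chaperones DNAJB9 (1.51) and DNAJC10 (1.31) rose too. Of the folding proteins, CALR fell from 1719 ± 100.1 to 632 ± 91.4 CPM, P4HB from 1893 ± 155 to 940.0 ± 242 CPM and HSPA5 (BiP) from 1478 ± 37.8 to 1023 ± 33.4 CPM. PDIA4 (-1.05) and CRELD2 (-1.75) fell, and the sensor EIF2AK3 (-0.10, PERK) did not pass. Heat shock genes gave 8 of 15 lower (4 retained), 2 higher (both retained) and a median of -0.549. HSP90AA1 fell from 2177 ± 316 to 793 ± 45.02 CPM, the HSP70 co-chaperone DNAJB1 from 281 ± 22.7 to 99.5 ± 15.98 CPM and HSPH1 from 268 ± 35.1 to 135 ± 5.28 CPM. The mitochondrial chaperones HSPA9 (0.80) and HSPD1 (0.45) rose. HSPA1B fell by 2.87 on the log2 scale, by 1.43 with the set term (not passed there), and it shares nearly all of its sequence with HSPA1A, so both counts are uncertain; HSPA1A (-0.44, not passed) was called lower with the set term (-0.92). The list's median was -1.06 in replicate 1, -0.909 in replicate 2 and -0.116 in replicate 3, each against the control mean. Replicate 3 thus lay nearer the controls.

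**Figure D5:**
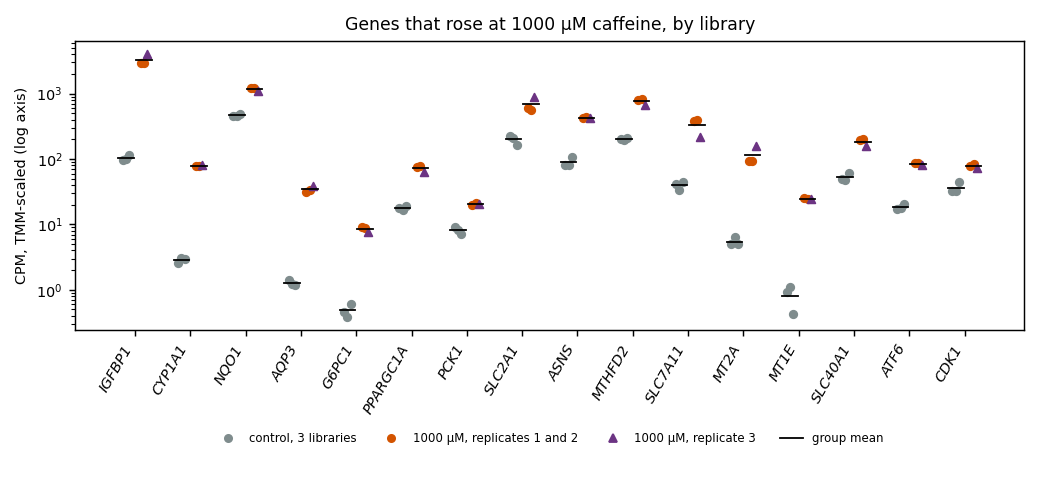
CPM on a log axis for 16 genes that rose, in each library (grey, control; orange, 1000 µM replicates 1 and 2; purple triangle, replicate 3; bars are group means). In all 16 the 3 treated libraries lie above the 3 controls. Replicate 3 is the highest treated library for IGFBP1, CYP1A1, AQP3, SLC2A1 and MT2A, for example. It is the lowest for G6PC1, SLC7A11, MT1E, ATF6 and CDK1, for example.

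Replication and mitosis genes separated. Of 29 genes of DNA replication and the G1/S step tested, 20 fell (16 retained) and 1 rose, with a median of -0.585; 2 were higher without control replicate 3, and 3 with replicate 3 as the only treated library. PCNA, the polymerase clamp, went from 198, 178 and 205 to 98.5, 103 and 101 CPM, lower in all 3 treated libraries. GINS2 (-1.28), CDC45 (-0.86), MCM2 (-0.94) and MCM4 (-0.60) fell. The primase subunit PRIM1 was the member that rose, from 20.3, 19.6 and 21.8 to 86.8, 78.3 and 38.9 CPM, with replicate 3 the least raised. RRM2 (-0.04) and CDT1 (0.04) did not pass, though CDT1 was called lower without replicate 3 at 1000 µM and in set B (-0.52). Of 28 mitosis genes tested, 15 rose (13 retained) and 2 fell (none retained), with a median of 0.333; 5 were lower without replicate 3 at 1000 µM, 1 without control replicate 3 or treated replicate 2, and none with treated replicate 3 alone. CDK1, the mitotic kinase, stood at 32.8, 32.2 and 44.02 CPM and then 78.7, 84.8 and 73.5 CPM, CENPF rose from 77.2 ± 11.9 to 159 ± 15.1 CPM and BIRC5 (survivin) from 22.5 ± 1.89 to 61.2 ± 7.07 CPM. CENPA (1.41), PLK1 (1.02), KIF11 (0.77) and TOP2A (0.68) rose, while CDC20 (-0.07), AURKB (0.23) and MKI67 (0.12) did not pass; CDC20 was called lower in set B (-0.69).

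Of 14 genes of the G1 cyclins, CDKs and their inhibitors, 4 rose (3 retained) and 7 fell (5 retained), with a median of -0.161; 3 were lower with replicate 3 as the only treated library. The inhibitor CDKN2B (p15) stood at 0.672, 0.779 and 0.767 CPM and then 6.58, 7.37 and 6.38 CPM, and CDKN1B (0.41) and MYC (0.54) rose. CCND2 (-1.19), CCND1 (-0.30), CDKN2C (-0.91) and CDKN2D (-1.57) fell. The call of CDKN2D ended without control replicate 1 or 2 or treated replicate 1 or 3 (adjusted p = 0.0517 to 0.0713). Among 19 damage kinases and repair genes 9 rose (3 retained) and 4 fell (2 retained), with a median of 0.122; with replicate 3 as the only treated library 5 were higher. The kinases SMG1 (1.21), PRKDC (0.93), ATM (0.82), ATR (0.66) and MTOR (0.34), which share a catalytic fold, rose, and the calls for SMG1 and PRKDC were retained. RAD50 (0.65) rose, and CLSPN (-1.29) and TOPBP1 (-0.57), adaptors of ATR signalling, fell.

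Among proteins that caffeine is known to act on, phosphodiesterase genes gave 5 of 14 lower (all retained), 2 higher (1 retained; 1 higher with replicate 3 as the only treated library) and a median of -0.08. Over all protein-coding genes tested, 31.5% were called higher, 31.8% lower and 38.3% were retained, and the counts of this paragraph stand beside those shares. PDE4C, a cAMP-specific enzyme, stood at 10.8, 9.48 and 7.63 CPM and then 1.02, 0.992 and 0.746 CPM. PDE7A (-0.68), PDE6D (-1.45), PDE3A (-0.75) and PDE1A (-3.13) fell, PDE8A (0.61) and PDE3B (0.33) rose, and PDE4D (0.06) did not pass. Among 20 genes of cAMP signalling 8 rose (4 retained) and 7 fell (5 retained), with a median of -0.049; 3 were lower with replicate 3 as the only treated library. CREB1, the cAMP-response factor, rose from 27.9 ± 2.86 to 59.6 ± 7.15 CPM and its coactivator CRTC3 from 10.3 ± 0.410 to 32.3 ± 2.29 CPM. CREM (-0.82), the kinase subunit PRKACA (-0.73) and the cAMP sensors RAPGEF3 (-1.41) and RAPGEF4 (-2.60) fell, and SIK2 (0.72) rose.

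Adenosine genes gave 4 of 11 higher (all retained) and 4 lower (3 retained), with a median of -0.129; 2 were lower with replicate 3 as the only treated library. The shares over all protein-coding genes tested were 31.5% higher and 31.8% lower. The receptor ADORA2B stood at 30.1, 29.2 and 26.2 CPM and then 48.3, 48.9 and 54.9 CPM, the groups not overlapping. ENTPD1, which degrades extracellular ATP, rose from 28.2 ± 1.80 to 93.04 ± 9.70 CPM, and NT5E (0.36), which forms adenosine, and AMPD3 (1.80) rose. AMPD2 (-0.95), the transporter SLC29A2 (-1.42) and ADA (-0.49) fell. ADORA2A (1.12, at 1.09 ± 0.749 CPM in the controls) did not pass, and ADORA1 and ADORA3 had at most 1 and 2 counts. Of 10 calcium genes tested, 4 rose (2 retained) and 1 fell, with a median of 0.264. The 1 lower became none without replicate 2 at 1000 µM, and 2 without replicate 3 at 1000 µM. The release channel ITPR1 rose from 27.4 ± 2.70 to 115 ± 20.4 CPM and the pump ATP2A2 (0.48) rose; ORAI3 (-0.47) fell, and was not called without treated replicate 2 (adjusted p = 0.052). RYR1 and RYR2 had 0 counts in all 6 libraries and RYR3 was at 0.384 ± 0.0734 CPM in the controls (0.40, not passed).

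In the axis of insulin and insulin-like growth factors 4 of 16 rose (all retained) and 4 fell (1 retained), with a median of 0.114; 2 were lower with replicate 3 as the only treated library. Besides IGFBP1, the receptor IGF1R rose from 104 ± 12.7 to 226 ± 43.97 CPM, INSR from 43.8 ± 2.005 to 86.1 ± 2.82 CPM and the factor FOXO3 from 34.7 ± 2.29 to 64.6 ± 6.31 CPM. IGFALS (-2.09), which stabilises circulating IGF complexes, IGF2 (-0.69) and IGFBP4 (-0.44) fell, and IRS1 (0.07) did not pass. IGF2 was not called without control replicate 1 (-0.45, adjusted p = 0.119) or treated replicate 1 or 2 (adjusted p = 0.0882 and 0.0779). Of 7 genes of glycerol handling tested, AQP3 and glycerol kinase GK (1.01) rose and AQP7 (-0.69) and AQP11 (-0.68) fell, all retained; the median was -0.184.

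Metal genes were among the largest rises. Of 16 tested, 10 rose (8 retained) and 5 fell (3 retained), with a median of 0.563. The 5 lower became 3 without control replicate 3, and 3 without replicate 3 at 1000 µM. The metallothioneins, small cysteine-rich proteins that bind zinc and copper, rose in all 5 members tested. MT2A went from 4.95, 6.46 and 4.95 to 92.1, 94.4 and 159 CPM, MT1X from 0.153, 0.0779 and 0.268 to 5.64, 5.92 and 7.46 CPM and MT1E from 0.917, 1.09 and 0.422 to 25.1, 24.9 and 24.2 CPM. Replicate 3 was the highest treated library for MT2A and MT1X and the lowest for MT1E. MT1F (2.38) and MT1G (1.33) rose as well; these genes are close copies of each other, so reads may be shared between them. The iron exporter SLC40A1 (ferroportin) rose from 52.7 ± 6.86 to 185 ± 21.7 CPM and BMP6, a signal for hepcidin, from 0.104 ± 0.0698 to 3.35 ± 0.493 CPM. The zinc importers SLC39A10 (-0.93) and SLC39A14 (-0.37) and the iron-regulatory ACO1 (-0.73) fell; SLC39A14 was not called without control replicate 3 or treated replicate 3 (adjusted p = 0.0558 and 0.0691).

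Metal response elements were searched as TGCGCNCGG on both strands in the 250 bases before the start. The letters were in 3 of 11 list genes with a promoter entry (27.3%), MT2A, MT1X and SLC40A1, and in 2.61% of all genes in the table. The MT2A window (chr16:56608404-56608483) and the MT1X window (chr16:56682310-56682429), both on the plus strand of GRCh38.p14, are printed because each held 2 matches, in capitals.
MT2A: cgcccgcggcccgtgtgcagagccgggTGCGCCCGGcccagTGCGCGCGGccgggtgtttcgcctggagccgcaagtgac
MT1X: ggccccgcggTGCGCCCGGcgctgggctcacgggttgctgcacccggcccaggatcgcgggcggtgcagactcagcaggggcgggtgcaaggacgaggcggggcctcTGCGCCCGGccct

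Genes of NF-kB feedback were lower. All 9 tested passed, with 8 lower and 1 higher, all retained, and a median of -1.10. TNFAIP3 and NFKBIA, which restrain the pathway, fell from 84.1 ± 7.33 to 28.8 ± 0.853 CPM and from 49.6 ± 6.66 to 13.9 ± 2.95 CPM. BIRC3 (-2.87), NFKB2 (-1.17), ICAM1 (-0.91) and IRF1 (-1.10) fell, and the chemokine CCL20 rose from 19.7, 23.7 and 27.7 to 72.8, 83.8 and 80.1 CPM. CXCL8 had at most 4 counts and was not tested. Of 14 targets of TGF beta and YAP tested, 8 fell (5 retained) and 4 rose (all retained), with a median of -0.391. CCN1 stood at 246, 275 and 229.8 CPM and then 54.6, 47.8 and 47.6 CPM, and ANKRD1 (-1.86), AMOTL2 (-2.05) and THBS1 (-1.76) fell. SKIL (1.54), AXL (1.57) and TGFB1 (0.90) rose; without replicate 3 at 1000 µM TGFB1 stood at 0.288 and was not called (adjusted p = 0.119). Immediate early genes gave 6 of 17 higher (5 retained), 6 lower (2 retained) and a median of 0.137, which was 0.475 with the set term. JUND (-1.83) and JUNB (-1.24) fell, ATF3, KLF4 (2.30), DUSP6 (0.66) and EGR1 (0.89) rose, and the falls of FOS (-1.06) and FOSB (-2.24) were not retained; without treated replicate 2 FOS was not called (adjusted p = 0.053).

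Clock genes gave 6 of 18 higher (all retained), 8 lower (4 retained) and a median of -0.022. NFIL3, a repressor, rose from 28.8 ± 4.38 to 90.7 ± 12.3 CPM, while BMAL1 (-1.31), PER3 (-1.58), CRY2 (-1.24) and TEF (-0.90) fell. Of 22 genes of autophagy and lysosome tested, 7 rose and 7 fell, 5 retained each way, with a median of -0.024. MAP1LC3B (1.74) and SQSTM1 (1.08), parts of the autophagosome, and the protease CTSB (1.12) rose. The lysosomal enzymes NEU1 and GLA fell, NEU1 from 266 ± 28.4 to 106 ± 14.1 CPM and GLA from 59.2 ± 8.17 to 25.6 ± 1.15 CPM, and the protease CTSD fell by 1.44 on the log2 scale. Purine and pyrimidine synthesis had 5 of 16 higher (1 retained), 4 lower (3 retained) and a median of 0.039, with GART (0.51) and IMPDH1 (-0.75) the members with the smallest p.

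Lists tied to mitochondrial and ribosomal reads had few retained calls. Of 13 mitochondrial mRNAs, 2 fell, MT-CO1 (-1.02) and MT-ATP8 (-2.57), and neither call was retained. The library sets were made by clustering these same mRNAs, so the set term can take up their differences. For this list the lack of retained calls therefore cannot be read as a result. Without replicate 3 at 1000 µM 10 of the 13 were lower, and with it as the only treated library none was. The median was -1.30, -1.26 and 0.259 in treated replicates 1, 2 and 3 against the control mean. MT-CO1 stood at 39969.6, 45640.4 and 47990.5 CPM in the controls and 18271, 18569 and 28977 CPM at 1000 µM, and at 0.08 with the set term. Of the 53 ribosomal protein genes tested, 24 rose and 7 fell, but 5 rises and no fall were retained. Of the small-subunit genes 3 fell, which became 1 without control replicate 2 or treated replicate 1 or 2, and none without control replicate 3 or with replicate 3 as the only treated library; large-subunit falls went from 4 to 2 with replicate 3 as the only treated library. The medians were 0.369 for the large subunit and 0.31 for the small one, and 0.075 and 0.027 with the set term. RPL34 (1.89), RPL14 (0.68) and RPS7 (0.50) were among the 5, while RPLP1 rose by 1.53 on the log2 scale and stood at -0.10 with the set term. Ribosomal protein genes have many processed copies, so their counts are uncertain. Nuclear genes of the respiratory chain gave 5 of 22 higher (1 retained) and 2 lower (1 retained), with a median of 0.133; 8 were higher without replicate 3 at 1000 µM, and 3 with it as the only treated library. UQCRC2 (0.72) rose and CYC1 (-1.17), of the same complex, fell. Of 14 factors of nonsense-mediated decay 4 rose and 4 fell, 3 retained each way (median -0.058), UPF2 (-0.95) and UPF3B (-0.999) lower and SMG8 (0.55) higher. Of 12 SR splicing factors 5 rose (2 retained) and 1 fell, with a median of 0.175; the 5 became 3 without either of control replicates 1 and 2 or treated replicates 1 and 2, and with replicate 3 as the only treated library 2 rose and none fell. The calls for SRSF1 (0.61) and SRSF5 (0.47) were retained.

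Markers of other cell types were checked. Of 9 fibroblast and stellate markers 3 were tested, and COL1A2, LUM and DES had 0 counts in all 6 libraries; their summed level was 39.2 to 43.3 CPM in the controls and 33.9 to 48.5 CPM at 1000 µM. PDGFRB rose from 3.52 ± 0.308 to 20.02 ± 2.99 CPM within that list and ACTA2 (-0.98) fell; their part in the results above was not tested. Of the 5 endothelial markers with counts listed, 1 was tested (LYVE1, 0.64, not passed), with a summed level of 0.275 to 0.614 CPM in the controls and 0.531 to 0.953 CPM at 1000 µM, and TEK had 0 counts. Of 7 macrophage and leukocyte markers with counts listed, 4 were tested, CD163 and CD3E had 0 counts, and PTPRC had at most 1. LYZ rose from 943 ± 68.9 to 1663 ± 286 CPM and carried most of that list's sum of 937 to 1060 CPM in the controls and 1400 to 1920 CPM at 1000 µM. The cholangiocyte list had 4 members tested and KRT7 at 0, with sums of 1330 to 1440 CPM in the controls and 1510 to 1640 CPM at 1000 µM. KRT19 (-1.58) and EPCAM (-0.27) fell, and SOX9 (0.27) and SPP1 (0.65) rose.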

How the data were processed

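The authors deposited raw read counts per gene, with unannotated loci as further features. The submitters' processing notes name HISAT2, DESeq2 and GRCh38 with no role or version; the counting tool, annotation, use of strand and filters are not given in the sources used here. A further 21 per-sample columns were not used. Counts of all 21 libraries were filtered by edgeR's filterByExpr, scaled by TMM and fitted with 7 groups by edgeR's quasi-likelihood test (edgeR 4.0.16, R 4.3.3), with Benjamini-Hochberg adjustment over 17951 features at 0.05. Library sets came from clustering the log2 counts of mitochondrial mRNAs. Reads carry no molecular identifiers, so count limits cover counting error only. Symbols came from a reference of gene names, or from GENCODE 29 for identifiers that it lacked. Gene types came from GENCODE 29.

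The 47 gene lists and the comparison were chosen with earlier results of these data known. Named were the 5 markers, the 10 largest rises and falls among retained calls at 5 CPM or more, up to 4 called members a list by p, and other members where the description turned on them. Of 871 list entries 777 were tested; 11 were not matched in the table and were not analysed here. Some genes and 1 list are not reported here.

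On simulated data for the 1000 µM comparison (17951 features), 176 of 200 changed genes were recovered with 9 false calls. With a simulated set difference 161 were recovered with 130 false calls, and 126 with 5 false calls when the set was a term. Only 200 of the 17951 features were changed in the simulation, while 57.6% were called in the data. Its counts of false calls therefore may not hold for the data. Alternatives were DESeq2 1.42.0, its size factors, limma-voom (limma 3.58.1), other filters, only the groups compared, a replicate block and leaving out each library.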

Additional observations from a re-analysis of the deposited data

How the results depend on the processing

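The count of 10342 features changed against control was 9853 without a filter, 10400 with limma-voom, 8197 with only the groups compared and 7421 with a mean of at least 5 CPM, which tests fewer features, and 9272 to 10922 with 1 library left out. It was 7732 with replicate 3 as the only treated library, an alternative chosen after seeing the data, and 6829 with the library set as a term. With that term, leaving out 1 library gave 5736 to 7727; within set B the count of 10794 ran from 9079 to 10881. The set term could not be fitted with only the groups compared or without replicate 3 at 1 µM. Replicate numbers did not pair the samples: the correlations of same-numbered control and treated libraries were 0.154, -0.114 and -0.00549. With the replicate block the 3 counts were 10167, 6051 and 10610. Among 329 named genes, 290 were called; 22 of them were not called with the set term and 31 with replicate 3 as the only treated library. Leaving out 1 library ended the calls given with it in the report and that of GPC3 (0.192) without control replicate 1. Signs turned with the set term for 13 named genes. Of these 3 were called against control, F11 (0.022), MT-CO1 (0.08) and RPLP1 (-0.10), and ORM1 (0.455) was called only with the term. List medians turned sign for 8 of 47 lists with replicate 3 as the only treated library, and for 3 lists with the set term, without replicate 3 at 1000 µM or without control replicate 3. CDT1 ran from -0.43, called lower, without replicate 3 at 1000 µM to 0.23 without replicate 2, and CDC20 higher (0.30) with replicate 3 as the only treated library. The causes were not tested. In the simulation 15 of 50 genes changed by 1.5-fold were recovered with the set term, and 12 of 50 when a set difference was simulated. A retained call needs that term to pass as well, so a retained count can miss small changes. The full retained rule was not simulated. All controls are in set A and no 1000 µM library is, so set and dose cannot be told apart without the other doses.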
